A study of Mus musculus with 2 samples.

Results

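The genes described here build and control the transcription machinery: subunits of RNA polymerases I, II and III, Mediator, TFIID and the other general factors, elongation factors, Integrator, and the factors that cleave and polyadenylate the nascent RNA. They were taken by gene symbol from a list of RNA sites enriched for N6-methyladenosine (m6A), by a rule that reads symbols only. The rule took 115 of 8987 sites, on 60 of 4959 gene symbols. The list compares 1 m6A immunoprecipitate library with 1 input library, which was not pulled down, both made from islets of 129sv mice aged 2 weeks. The number of animals behind each library was not stated in the labels. With 1 library per group there is no replicate, error or test, and the depth of both libraries is unknown.

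RNA polymerase II is brought to promoters by general factors and by Mediator, the complex that relays activators to the polymerase. Pause release and elongation then depend on DSIF, the super elongation complex and kinases of the polymerase tail, and the transcript ends when CPSF, CstF and their partners cut it and a poly(A) tail is added. The most common internal mark of messenger RNA, m6A, is placed while RNA is being made, mostly in the short sequence context called DRACH, and is known to concentrate near stop codons and in long exons.

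Each site has a fold, the linear enrichment of immunoprecipitate over the input background, and a false discovery rate (FDR) in percent. Both are the authors' deposited values from their peak caller. Among markers of islets, 4 of 12 carried a site. They were the granule proteins Chga (strongest fold 27.48) and Chgb (21.38), the beta cell factor Mafa (12.52) and Neurod1 (9.24). Ins1, Ins2, Gcg, Sst, Ppy, Iapp, Pdx1 and Nkx6-1 had no site. Of 8 acinar markers 2 carried a site, Pnlip and Amy2b, with strongest folds of 2.87 and 2.98. Among all protein-coding genes the share with a site was 22.2%. A site needs RNA in the input, so these counts do not measure expression. A gene without a site is not thereby unmethylated, and how many of the listed genes were expressed was not analysed here.

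Sites that covered an annotated start of transcription are shown first, because they include the largest fold of the set and because RefSeq sequence is given only around starts. Coordinates are GRCm38, counted from 1. In the lines that follow, 29 bases are read 5′ to 3′ along the transcribed strand, within the first 50 bases from a RefSeq start (GRCm38.p6) that a site covered. Capitals mark every DRACH match in the window, that is A, G or T, then A or G, then AC, then A, C or T. The genes are ordered by fold, from 36.28 for Aff4 to 4.22 for Med28, and Aff4 and Cdk13 had no match in those 50 bases.
Aff4, chr11:53350767-53350795, plus strand: gtcagtcccagtcccggctgcgggagtcg
Aff1, chr5:103754163-103754191, plus strand: aggcggtgctgaGGACAcagagctgagga
Cdk13, chr13:17805069-17805097, minus strand: cgccgccgccgccacaggacgacgtggac
Med12l, chr3:59006978-59007006, plus strand: tttcgccggtTAACAtgagagatcatggc
Supt16, chr14:52197190-52197218, minus strand: gagcgcgggtggcggagctgGGACCtcgc
Gtf3c5, chr2:28583251-28583279, minus strand: ccggaaAAACCcggtcgaatcctggcttg
Ell2, chr13:75707505-75707533, plus strand: aggtctagctgcgcgcagtataTGACAgt
Cdk12, chr11:98203320-98203348, plus strand: tggagcgccgggGAACTttttcccctgct
Polr3e, chr7:120917799-120917827, plus strand: tttctccagcagGAACAtggccgctgcct
Med28, chr5:45520229-45520257, plus strand: ggcGAACTgcccgtcatgTGACCaggcct

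In all, 14 sites covered an annotated start of their gene together with its first 50 bases. The other four were on Med14, Cpsf6, Polr3g and Gtf2i, and none of these had a match. A DRACH match lay in those 50 bases at 8 of the 14 starts (57.1%), against 34.4% of the 1396 starts that any site of the table covered in the same way and 54.4% of all 32851 RefSeq starts. For the letters GGAC on the transcribed strand, which several DRACH matches contain, the shares were 21.4%, 19.3% and 18.9%. A match describes the letters in the window and does not locate the methylated base. On 9 of the 14 genes (Aff4, Aff1, Cdk13, Supt16, Gtf3c5, Ell2, Cpsf6, Polr3g and Gtf2i) the 5′ edge of the site fell exactly on the RefSeq start, which is 64.3%, against 65.1% of all sites that covered a start. Not every covered start was the outermost one of its gene. It lay 61800 bases inside the gene span in Aff1, 2918 in Gtf2i, 1559 in Med12l, 872 in Cdk12 and 621 in Med14, and at most 127 bases inside in the others. Among start sites with a fold of at least 10, those of Aff1, Med12l, Supt16 and Gtf3c5 had an FDR of 100%. Those of Aff4 and Cdk13 had 39.75% and 42.13%.

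The folds of the set are given beside those of all sites in the table, which include it, with no test of a difference. The fold had a median of 7.03 and an interquartile range of 5.27 to 9.32 in the set, and a median of 7.13 and an interquartile range of 5.47 to 9.87 over all 8987 sites. A fold of at least 10 was reached by 25 of the 115 sites (21.7%), and by 24.6% of all sites. Just above that limit, 5 sites of the set lay between 10 and 11, and just below it 6 lay between 9 and 10. The FDR was below 100% at 30 sites (26.1%), against 25.7% of all sites, and its lowest value was 27.16%. Median lengths were 214 bases for these sites and 211 bases for all. Taking the strongest site of each gene, the median was 8.11 over the 60 genes and 8.09 over all genes with a site, and 20 of the 60 (33.3%) had a strongest fold of at least 10, against 34.1%.

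A larger share of these genes than of all genes had a site. The symbol rule matches 147 protein-coding genes of the RefSeq annotation, and 62 of them (42.2%) carried a site, including 2 Integrator genes, Ints6l and Ints13, that the table lists under older symbols. Of all 21900 protein-coding genes, 22.2% carried one. Median genomic spans were 19557 bases for the rule's genes and 17146 bases for all. For any site, the share was higher than that of all genes in each class of span. It was 22.5% against 8.38% up to 10000 bases, 30.2% against 21.5% from there to 30000 bases, 68.9% against 34.9% up to 100000 bases, and 66.7% (6 of 9 genes) against 42.4% beyond. From 10000 to 30000 bases this did not extend to stronger sites: a site with a fold of at least 10 was found on 5.66% of the rule's genes against 7.56% of all, and one with an FDR below 100% on 3.77% against 7.13%. Input levels were not analysed here for either set, so their part in these shares was not tested. Several sites per gene were about as common as elsewhere: 25 of the 60 genes (41.7%) had more than 1 site, against 40.2% of all genes with a site. Genes with 4 or more sites made up 15% of the 60 (9 genes) and 9.07% of all.

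**Figure D1:**
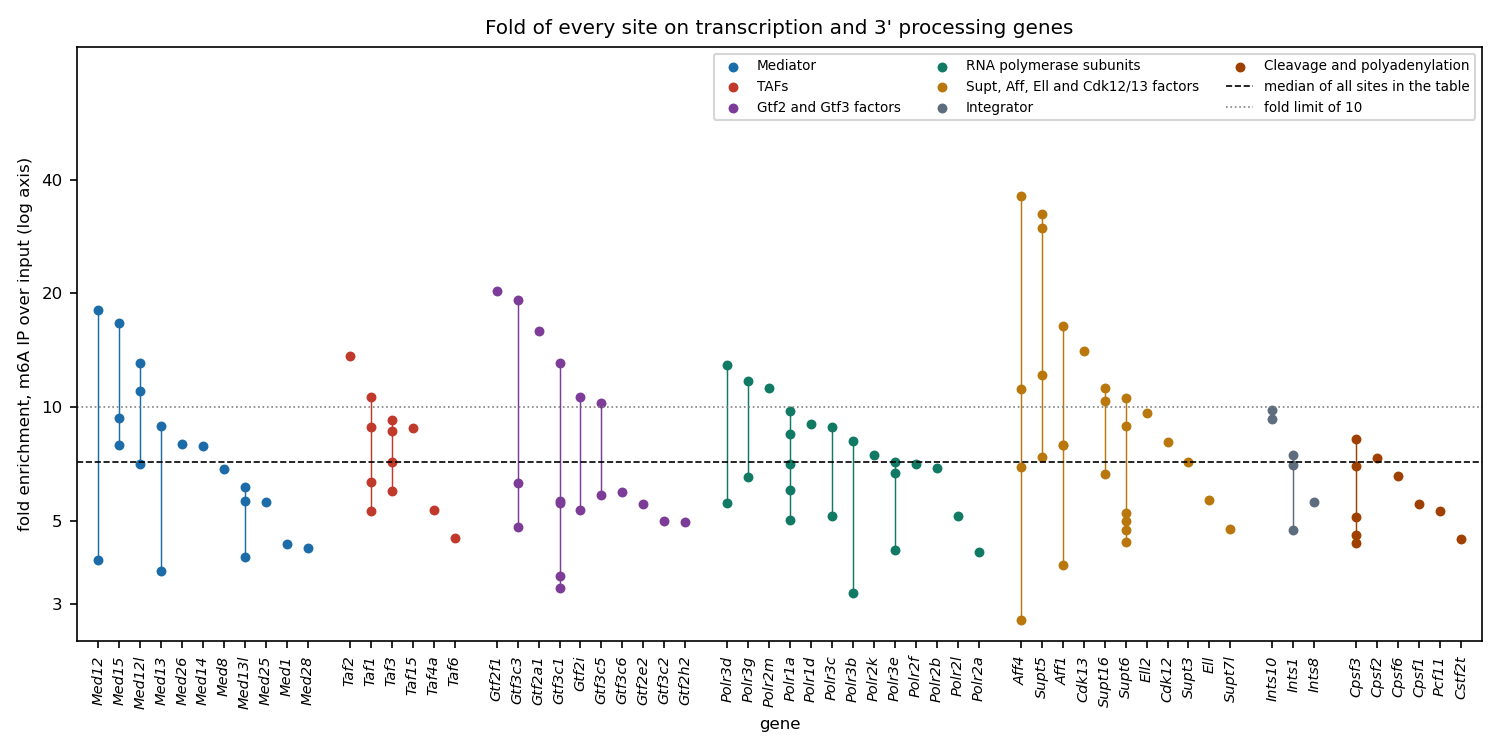
Fold enrichment of each of the 115 sites (points, log axis), by gene and functional group, with a line joining the sites of a gene. The dashed line is the median of all sites (7.13) and the dotted line a fold of 10. Aff4 and Supt5 stand highest. None of the 6 Integrator and 10 cleavage factor sites reaches 10, which 24.6% of all sites do.

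Pause release and elongation factors held the largest folds. Their 27 sites lay on 11 genes and include 2 on the SAGA coactivator subunits Supt3 and Supt7l. A fold of at least 10 was reached by 10 of the 27 (37.0%), against 24.6% of all sites. An FDR below 100% was found at 14 (51.9%), against 25.7%. Sites on the same gene are not independent. By gene, 6 of the 11 (54.5%) had a strongest fold of at least 10, against 34.1% of all genes with a site. Aff4, a scaffold of the super elongation complex, had folds of 36.28, 11.18, 6.95 and 2.72 at its 4 sites, in order along transcription. The first covered 363 bases at chromosome 11, 53350767 to 53351129, and ranked 63 of all 8987 sites. The folds of Aff4 thus fell steadily from the start of the gene towards its end.

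Supt5, the large subunit of the pausing and elongation factor DSIF, had folds of 29.86, 32.51, 12.13 and 7.36 in the same order. Its largest lay at chromosome 7, 28331370 to 28331529, with an FDR of 27.16%, the lowest value in the table, which other sites share. The site of fold 29.86 was centred 275 bases from the start of the gene. They lay at 30.8% and 1.2% of the gene span and ranked 84 and 105 of all sites.

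Supt6, a histone chaperone that travels with the polymerase, had the most sites of the set. Its 6 folds were 10.54, 4.72, 4.39, 5.00, 8.93 and 5.24 along transcription, and the first, at chromosome 11, 78230928 to 78231201, had an FDR of 42.62%. One site of Supt6 therefore passed 10, and the other five stayed below it. Supt16, a subunit of the histone chaperone FACT, had folds of 10.36, 11.24 and 6.64. Aff1, the paralogue of Aff4, had folds of 16.37, 3.82, 7.95 and 7.95, and again the most 5′ site was the largest by fold. That site had an FDR of 100%, whereas the last one, of fold 7.95, had 61.19%.

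The kinases Cdk13 and Cdk12, which phosphorylate the tail of the polymerase, had 1 site each, with folds of 14.09 and 8.09. Both were long, 1660 and 1352 bases, and both covered an annotated start, 115 and 872 bases inside the outer start of the gene span. Ell2 and Ell, elongation factors of the same family, had folds of 9.64 and 5.66, the Ell2 site at the start of the span and the Ell site at 86.7% of the gene span. Ell3 had no site. Supt3 and Supt7l had 7.16 and 4.75.

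A list of 26 elongation genes had sites on 14 (53.8%, against 22.2% of all protein-coding genes), most of them genes already described. Of the 15 in that list that lie outside the symbol rule, 5 (33.3%) had a site, with a median strongest fold of 17.41. In the PAF complex, which accompanies the polymerase through chromatin, Rtf1 had 6 sites and a strongest fold of 29.96, Leo1 8 sites and 28.6, Ctr9 4 sites and 17.41, and Cdc73 4 sites and 13.31. Paf1 itself had no site. Ssrp1, the partner of Supt16 in FACT, had a fold of 14.42. Cdk9, Ccnt1 and Ccnt2, which form the pause-release kinase P-TEFb, had none, and neither did Supt4a, the partner of Supt5, or Ccnk, the cyclin of Cdk12 and Cdk13. The pausing factor NELF (Nelfa, Nelfb, Nelfcd and Nelfe) and Hexim1, an inhibitor of P-TEFb, had no site either.

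General transcription factors came next. Of 18 sites on Gtf2 and Gtf3 genes, 6 (33.3%) had a fold of at least 10, against 24.6% of all sites. Gtf2f1, the large subunit of TFIIF, had a single site with a fold of 20.32 at chromosome 17, 57003402 to 57003631, centred 115.5 bases from the end of the gene. Gtf2a1, a TFIIA precursor, had 1 site with a fold of 15.87 at chromosome 12, 91567540 to 91567860. These 2 factors stood apart from Gtf2e2 of TFIIE (5.54) and Gtf2h2 of the TFIIH core (4.97). Gtf2i, a signal-responsive factor despite its name, had folds of 5.34 and 10.66 along transcription. Among the other TFIIH genes, the helicases Ercc3 and Ercc2 had strongest folds of 11.83 and 5.84 and the kinase Cdk7 7.7, whereas Gtf2h1, Gtf2h3, Gtf2h4 and Gtf2h5 had no site. Gtf2b had none either.

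TFIIIC, which recruits RNA polymerase III to tRNA genes, had a site on 5 of its 6 listed subunits. Gtf3c3 had folds of 19.22, 4.81 and 6.30 along transcription, and the first, at chromosome 1, 54438813 to 54438971, was centred 134 bases from the start. Gtf3c1, its largest subunit, had folds of 3.31, 5.62, 13.11, 3.56 and 5.57, so that a single site, at 68.2% of the gene span, exceeded 10. Gtf3c5 had folds of 10.27 and 5.86, Gtf3c6 5.94 and Gtf3c2 4.98. Gtf3c4 had none. With Brf1 (6.95) and Bdp1 (6.64) of TFIIIB, 7 of 10 factors of RNA polymerase III (70%) carried a site. For those of RNA polymerase II it was 7 of 17 (41.2%), and for all protein-coding genes 22.2%.

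Within Mediator, a larger share of genes carried a site in the detachable kinase module than in the core. In the module, which represses or tunes Mediator through a cyclin-dependent kinase, 5 of 7 genes (71.4%) had a site. In the core 7 of 26 (26.9%) did, against 22.2% of all protein-coding genes. Median genomic spans were 90564 bases in the module and 13994 bases in the core, and the part of span in these shares was not tested. A site was found on 34.9% of all protein-coding genes spanning 30000 to 100000 bases. For spans of 10000 to 30000 bases the share was 21.5%. Med12, which activates the kinase, had folds of 3.94 and 18.03 along transcription, the larger at chromosome X, 101297187 to 101297482. Its paralogue Med12l had folds of 11.05, 13.12 and 7.08. Both genes therefore had at least 1 site above 10. Med13 and Med13l, which tether the module to the core, had lower folds: 8.88 and 3.68 for Med13, and 5.62, 4.01 and 6.14 for Med13l. The kinase Cdk19 had a single site of fold 11.35, and its paralogue Cdk8 and their cyclin Ccnc had none.

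In the core, Med15, a tail subunit bound by activators, was highest, with folds of 9.34, 16.66 and 7.92. The middle one lay at chromosome 16, 17673069 to 17673398. The other core genes had 1 site each and stayed below 8: Med26, which binds elongation factors, 7.99, the scaffold Med14 7.9, Med8 6.87, the activator target Med25 5.6, the nuclear receptor partner Med1 4.33 and Med28 4.22. The Med1 site was the longest of the set at 4882 bases. Med4, Med6, Med7 and Med17 were among the 19 core genes without a site.

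TFIID and other TAF genes had 12 sites, of which 2 (16.7%) had a fold of at least 10, against 24.6% of all sites. An FDR below 100% was found at 5 of the 12 (41.7%), against 25.7% of all sites. Taf2, a subunit that contacts promoter DNA, had 1 site with a fold of 13.66 at chromosome 15, 55071847 to 55072152. Taf1, the largest subunit, had folds of 5.3, 10.6, 6.32 and 8.87 along transcription. Taf3, which binds a methylated histone tail, had folds of 8.62, 9.26, 5.99 and 7.16. The 8 sites of Taf1 and Taf3 thus lay between 5.3 and 10.6, a narrower range than the 4 of Aff4 or of Supt5. The RNA-binding protein Taf15 had a fold of 8.8, Taf4a (Taf4 in RefSeq) 5.33 and Taf6 4.49. Tbp, the subunit that binds the TATA box, had no site, and nor did any of the 4 TAFs of the RNA polymerase I factor SL1, Taf1a, Taf1b, Taf1c and Taf1d.

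**Figure D2:**
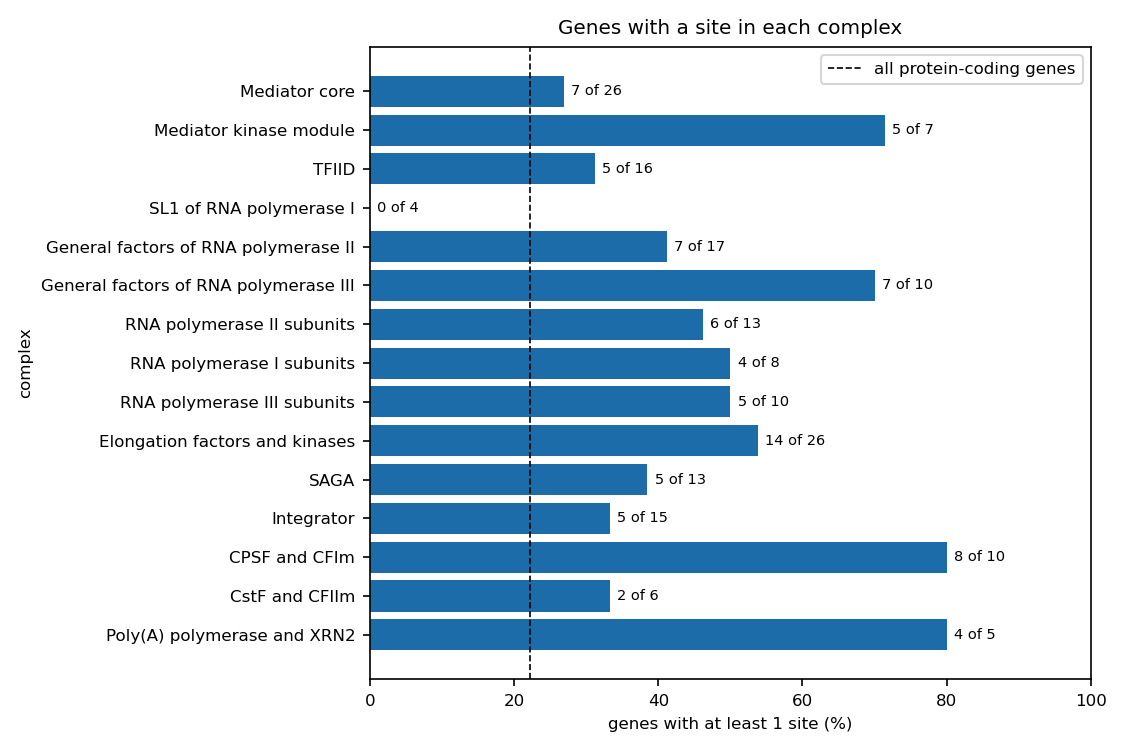
Share of genes with at least 1 site in each of 15 complexes (bars, with counts), beside all protein-coding genes (dashed line, 22.2%). Shares run from 0 of 4 for SL1 to 8 of 10 for CPSF and CFIm, and the Mediator kinase module stands above the Mediator core.

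RNA polymerase subunits had 23 sites on 13 genes. A fold of at least 10, which 24.6% of all sites reached, was found at 3 of these 23 sites. They were on Polr3d (12.9, chromosome 14, 70442951 to 70443227), Polr3g (11.71) and Polr2m (11.25), the last a polymerase-bound protein and not a catalytic subunit. Polr2a, the catalytic subunit of RNA polymerase II whose tail couples transcription to processing, had the lowest strongest fold of the 13, 4.13 at a site of 1563 bases. Its partner Polr2b had 6.88. Polr2k, Polr2f and Polr2l, which are among the subunits shared by the polymerases, had 7.44, 7.08 and 5.14. No site was found on Polr2c, Polr2d, Polr2e, Polr2g, Polr2h, Polr2i or Polr2j.

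Polr1a, the catalytic subunit of RNA polymerase I, had 5 sites with folds of 8.5, 6.03, 5.01, 7.08 and 9.77 along transcription. Polr1d, shared by polymerases I and III, had 8.99. The further RNA polymerase III genes Polr3c, Polr3b and Polr3e had strongest folds of 8.86, 8.12 and 7.14 on 2, 2 and 3 sites. A site was found on 6 of 13 genes for RNA polymerase II (46.2%) and 5 of 10 for polymerase III. For polymerase I it was 4 of 8, counting Polr1f (10.36) and Polr1g (9.86), which the table lists under older symbols. Of all protein-coding genes, 22.2% had a site. The catalytic subunit Polr3a had none.

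Integrator and the cleavage factors had 0 of 6 and 0 of 10 sites with a fold of at least 10, against 24.6% of all sites. Each of these 16 Integrator and cleavage factor sites had an FDR of 100%, as did 74.3% of all sites. Integrator cuts small nuclear RNAs and attenuates paused polymerase. Its highest folds were 9.3 and 9.81, on Ints10, followed by Ints1 with 7.47, 4.72 and 7.03 along transcription and Ints8 with 5.59. Ints6l and Ints13, listed under older symbols and outside the 115 sites, had 5.78 and 5.55. Ints11, its endonuclease, had no site. Cpsf3, the endonuclease that cuts messenger RNA precursors, had folds of 8.24, 6.99, 5.1, 4.35 and 4.57 along transcription, with the 2 most 5′ sites above the other three. The CPSF subunits Cpsf2 and Cpsf1 had 7.34 and 5.54, Cpsf6 of CFIm 6.57 and Pcf11 of CFIIm 5.3. Cstf2t, an intronless copy of a CstF subunit gene, had 4.46 over 3711 bases. Reads of Cstf2t and Cstf2 can be shared, and the Cstf2t site also lies within the span of Prkg1.

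Cleavage and polyadenylation genes outside the symbol rule included several with a strongest fold above 10. The list of CPSF and CFIm had sites on 8 of 10 genes (80%), against 22.2% of all protein-coding genes. Of the 8, 4 are Cpsf genes already described and 4 lie outside the rule. Fip1l1, which links CPSF to poly(A) polymerase, had a fold of 22.83, and the scaffold Sympk had 6 sites and a strongest fold of 14.37. Wdr33, which reads the polyadenylation signal, had 7.24 and Nudt21 3.54. The poly(A)-binding protein Pabpn1 had 17.93, the polymerases Papolg and Papola 12.97 and 4.47, and Rbbp6 9.67. Cpsf4, Cpsf7, Cstf1, Cstf2, Cstf3, Clp1 and Xrn2 had no site.

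Along the gene, a smaller share of these sites than of all sites lay at the start and a larger share at the end, with no test of either difference. Strand was known for 105 of the 115 sites and for 7208 of all. The midpoint lay in the last 10% of the gene span for 24 of them (22.9%), against 12.8% of all placed sites, and in the first 10% for 19 (18.1%), against 25.4%. The site covered an annotated start in 14 (13.3%), against 19.5%. Within 1000 bases of the gene end the shares were 7.62% and 6.2%, a smaller gap than for the last 10% of the span. Gene spans include introns, so a percentage of the span is not that of the messenger RNA, and exons were not used here.

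**Figure D3:**
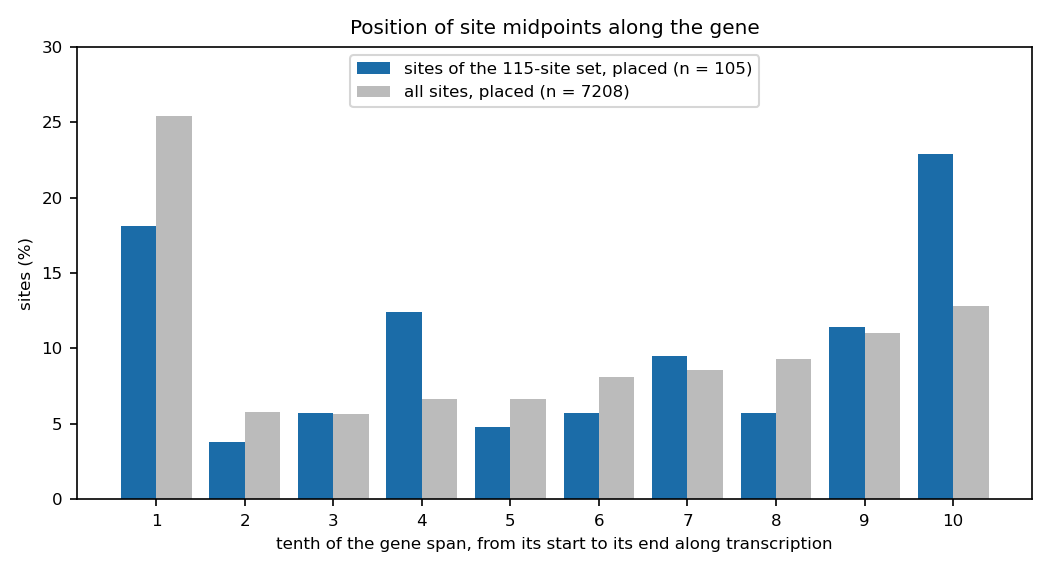
Position of site midpoints in 10 equal parts of the gene span along transcription, as percent of placed sites, for the 115-site set (blue, 105 placed) and all sites (grey, 7208 placed). The last part holds 22.9% of the blue and 12.8% of the grey sites.

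The groups contributed unequally to the end of the gene. Mediator had 6 of 18 placed sites in the last 10% and the TAF genes 5 of 11, among them 3 of the 4 Taf3 sites. Elongation factors had 1 of 27 there (3.7%), on Supt6, and 6 of 27 in the first 10% (22.2%). The shares of all placed sites were 12.8% in the last 10% and 25.4% in the first 10%. Polymerase subunits had 5 of 20, including Polr2a at 96.8% of the span and sites on Polr3b and Polr3e at 99.1% and 99.2%.

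Folds were larger near the start. Sites of the set in the first 10% of the span had a median fold of 8.88, those in the middle 6.76 and those in the last 10% 7.08. Over all placed sites these medians were 8.56, 6.81 and 6.68. A fold of at least 10 was reached by 8 of 19 sites in the first 10% (42.1%), 13 of 62 in the middle (21%) and 2 of 24 in the last (8.33%), against 39.2%, 20.4% and 17.9% of all placed sites. The 2 in the last 10% were those of Gtf2f1 and Med12. Among the 23 genes with several placed sites, the strongest was the most 5′ one in 9 (39.1%) and the most 3′ one in 7 (30.4%), against 51.4% and 29.8% of such genes in the table. Elongation factors had it most 5′ in 3 of 5 genes and polymerase subunits most 3′ in 4 of 5.

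**Figure D4:**
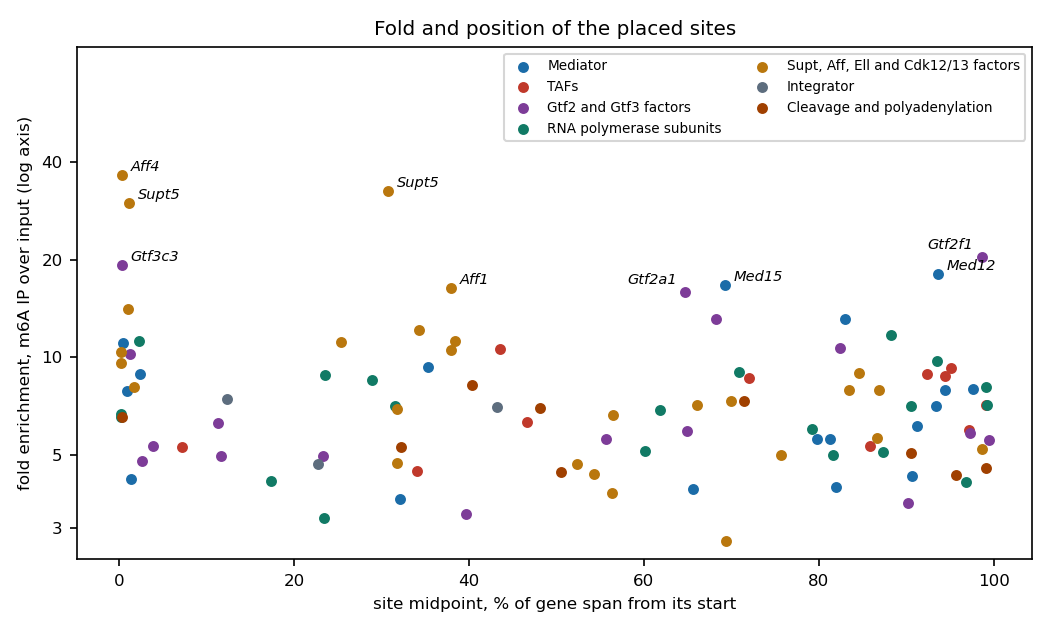
Fold of the 105 placed sites (log axis) against the midpoint's position in percent of the gene span from its start, coloured by functional group, with genes named at a fold of at least 15. The largest fold, of Aff4, sits at the start, the next, of Supt5, at 30.8% of the span, and the named sites of Gtf2f1 and Med12 near the end.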

How the data were processed

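Reads were trimmed with cutadapt 1.9.3 and aligned with HISAT2 2.0.4, per the submitters' processing notes, and sites were called with MACS and assigned to transcripts, per the labels' protocols. The table used here compares 1 immunoprecipitate with 1 input; reads and depth were not analysed here. In the authors' deposited values the fold enrichment is a linear ratio, the score is -10 times log10 of the caller's p per the file headers, and the deposited FDR was read as a percent. The labels name human HG19 and mouse mm10; all 115 sites lay within the GRCm38 span of their gene, 114 matched by identifier and 1 by synonym, so GRCm38 was used. Starts were counted from 0 and are printed from 1.

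Strand came from RefSeq promoters, absent for 8 genes (10 sites). Counts, medians and shares were computed with Python 3.11.15 and pandas 2.3.3, tested on simulated data, with a fold limit of 10 and no test. The members, though matched by symbol alone, and the lists were chosen with earlier results of these data known. Any gene matched by the rule could be named. Full values were for the 4 strongest of each group and genes with 4 or more sites. Of the genes without a site, up to 8 per list were to be named. The elongation genes named without a site go beyond that limit. Alternatives were a fold of at least 5 or 15, a p of at most 1e-10, an FDR below 100%, merging within 100 bases, listed members only, median folds and other position limits.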

Additional observations from a re-analysis of the deposited data

How the results depend on the processing

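No paired analysis was possible because there is 1 library per group and no test. Of the 115 sites, 76 remained with a caller p of at most 1e-10 and 30 with an FDR below 100%. Listed genes with a site numbered 84, and 33 with an FDR below 100%. The median strongest fold moved to 13.11 with an FDR below 100% and to 7.055 with the median fold per gene, and 9 sites had a fold of at least 15 in place of 25 at 10. These stricter limits keep fewer sites by construction. With an FDR below 100%, the median strongest fold of all genes was 13.22, and a fold of at least 10 was reached by 66.7% of the remaining sites of the set and 65.8% of all. In place of 22.9% in the last 10%, 34.3% of placed sites lay in the last 20% of the span (23.8% of all placed sites). Within 1000 bases of the gene end it was 7.62%. Both measures at the start were added after seeing the data: 18.1% lay in the first 10% of the span and 13.3% covered a start. Among 15 complexes, the count of genes with a site moved by over 1.5 times in 2 with a fold of at least 5, in 3 with p of at most 1e-10 and in 12 with an FDR below 100%, where Elongation factors kept 12 of 14 genes and Integrator, SAGA and the CstF list none. Merging intervals moved nothing and says nothing about stability. The DRACH motif across whole sites was not run, since no genome was used. Depth is unknown, so no fold has an error.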

Other observations

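Paralogous pairs, picked out after their values were seen and not a complete list, differed in whether both copies carried a site. Both did in Aff4 and Aff1 (strongest folds 36.28 and 16.37), Med12 and Med12l (18.03 and 13.12) and Cdk13 and Cdk12 (14.09 and 8.09). Both also did in Med13 and Med13l (8.88 and 6.14) and in Ell2 and Ell (9.64 and 5.66), though Ell3 had no site. Only 1 copy did in Polr3g (11.71), whose paralogue Polr3gl had no site, in Cdk19 (11.35), with none on Cdk8, in Taf4a (5.33), with none on Taf4b, and in Cstf2t (4.46), with none on Cstf2. This choice left out other pairs. Both copies carried a site in Papolg and Papola (12.97 and 4.47). Only 1 copy did in Ints6l (5.78), Taf6 (4.49), Cpsf6 (6.57) and Brf1 (6.95), with none on Ints6, Taf6l, Cpsf7 and Brf2. Neither copy did in Taf9 and Taf9b. The share of all protein-coding genes with a site was 22.2%. Whether the copies without a site were present in the input was not analysed.

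Of 13 genes with a site that the authors' deposited pathway column assigns to basal transcription factors, 10 belong to the set described here, the other three being Cdk7, Ercc2 and Ercc3. Of 12 assigned to RNA polymerase, 11 do, the other being Twistnb, a subunit of RNA polymerase I. Of 50 assigned to mRNA surveillance, which includes cleavage and polyadenylation genes, 6 do. In the broader viral carcinogenesis and herpes simplex infection pathways 3 of 65 and 5 of 45 do. The set holds 60 of the 4959 gene symbols with a site. Its members were taken by symbol, so these counts describe which genes the rule covers and not their sites.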
